A study of Mus musculus with 12 samples.

Results

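Cholesterol handling in the gut wall was examined through 10 genes, taken by name: Abcg5, Abcg8, Npc1l1, Abca1, Abcg1, Scarb1, Soat2, Nr1h3, Mylip and Cd36. They were looked up among 54838 Ensembl gene identifiers in the deposited counts, where each had 1 identifier, and all 10 were among the 15938 genes that passed the filter on low counts. The samples were pieces of ileum, the last part of the small intestine, from female C57BL/6J mice of 8 to 14 weeks, in 4 groups of 3 mice. Mice drank normal water or water with 25 mM ZnSO4 for 7 days, were then injected with 200 µg dexamethasone (Dex, a synthetic glucocorticoid) in PBS or with PBS alone, and were sampled 2 h later. The groups are called water + PBS, ZnSO4 + PBS, water + Dex and ZnSO4 + Dex. Nothing in the labels ties a library to a particular litter, cage or day.

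Enterocytes, the absorptive cells of the intestine, take up cholesterol through NPC1L1, esterify it with SOAT2 for export in chylomicrons, and pump surplus sterol back into the lumen through the paired half-transporters ABCG5 and ABCG8. Oxidised sterols activate the liver X receptors (LXRs), of which Nr1h3 encodes LXRα. LXRs raise transcription of Abcg5, Abcg8, Abca1, Abcg1 and of Mylip, whose product marks the LDL receptor for degradation. Scarb1 encodes the HDL receptor SR-BI, and Cd36 a receptor for fatty acids and modified lipoproteins that is also made by adipocytes, macrophages and endothelium.

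Total counts lay between 10760132 and 11827487 per library. The treatments left their known marks: the glucocorticoid targets Fkbp5, Tsc22d3 and Per1 rose with Dex by a log2 fold change (LFC) of 2.07 to 3.39, and with ZnSO4 the metallothioneins Mt1 and Mt2 rose by an LFC of 4.42 to 5.38 while the zinc importer Slc39a4 fell in both comparisons. Enterocyte markers (6 genes, among them Vil1 and Alpi) summed to 162746 to 177106 normalised counts in water + PBS and 150378 to 166171 in ZnSO4 + PBS. In water + Dex they were at 197063 to 210393, above all other libraries. In ZnSO4 + Dex they were at 165809, 82114 and 187371, and replicate 2, at 82114, stood apart. Distal enterocyte markers were at 74894 to 135468 and proximal ones at 1420 to 4525 summed normalised counts, as the label ileum would have it. In bulk tissue, fewer cells of a type and less RNA per cell cannot be told apart.

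Abcg5 and Abcg8 lie head to head on mouse chromosome 17 (GRCm38), Abcg5 on the minus strand at chr17:84658234-84683011 and Abcg8 on the plus strand at chr17:84676302-84700333. An Abcg8 start in RefSeq (84683121) is separated from the Abcg5 start (84683011) by 109 bases, chr17:84683012-84683120. That stretch is shown because both genes are read outward from it. It is written 5′ to 3′ on the plus strand, in the GRCm38.p6 sequence of RefSeq. Capitals mark TTATCT, the reverse complement of the GATA factor motif AGATAA.

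Abcg5-Abcg8 start region: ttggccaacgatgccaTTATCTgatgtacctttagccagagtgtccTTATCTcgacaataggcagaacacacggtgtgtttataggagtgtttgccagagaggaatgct

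The motif occurred 2 times between the starts. RefSeq windows of 300 bases, from 250 before to 50 after a start, were at hand for 7 of the 10 genes (9 windows; none for Abcg1, Scarb1 and Soat2). AGATAA, on either strand, was in 2 of the 9 windows (Abcg5 and Abcg8) and in 11.2% of 32851 windows of mouse genes. Those 2 windows share 209 bases, which hold all 3 of their matches, so they are 1 stretch counted under both genes. The LXR motif DR4, 2 copies of AGGTCA with 4 bases between them, was in none of the 9 and in 0.0152% of all windows. Only exact copies were counted, and just 5 of the 32851 windows held 1. Its absence from 9 windows therefore says nothing about looser LXR sites in these genes. The glucocorticoid receptor motif, GNACA and TGTNC with 3 bases between, was in none of the 9 and in 0.475% of all. At that share its absence from 9 windows is uninformative too. Of the metal response cores, TGCACNC was in none (12.6% of all windows) and TGCGCNC in the Abca1 window alone (15.4% of all). These are letter matches near a start, not measured binding.

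Per length of transcript, the 10 genes spanned over 2 orders of magnitude in untreated ileum. In water + PBS mice the mean level, in reads scaled to exon length and library size (RPKM), was 117 ± 15.2 for Npc1l1 (SD, n = 3), 66.3 ± 7.76 for Abcg5, 46.5 ± 6.98 for Abcg8 and 34.8 ± 2.40 for Soat2. Nr1h3 followed at an RPKM of 13.5 ± 1.60, then Cd36 at 7.75 ± 2.47, Mylip at 6.21 ± 2.93 and Abca1 at 3.44 ± 1.24. Scarb1 (1.32 ± 0.237) and Abcg1 (0.832 ± 0.364) were lowest on this scale. The enterocyte genes of uptake, esterification and efflux back to the lumen therefore headed the order. Neighbours overlapped in range for Cd36 and Mylip, Mylip and Abca1, and Scarb1 and Abcg1.

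**Figure D1:**
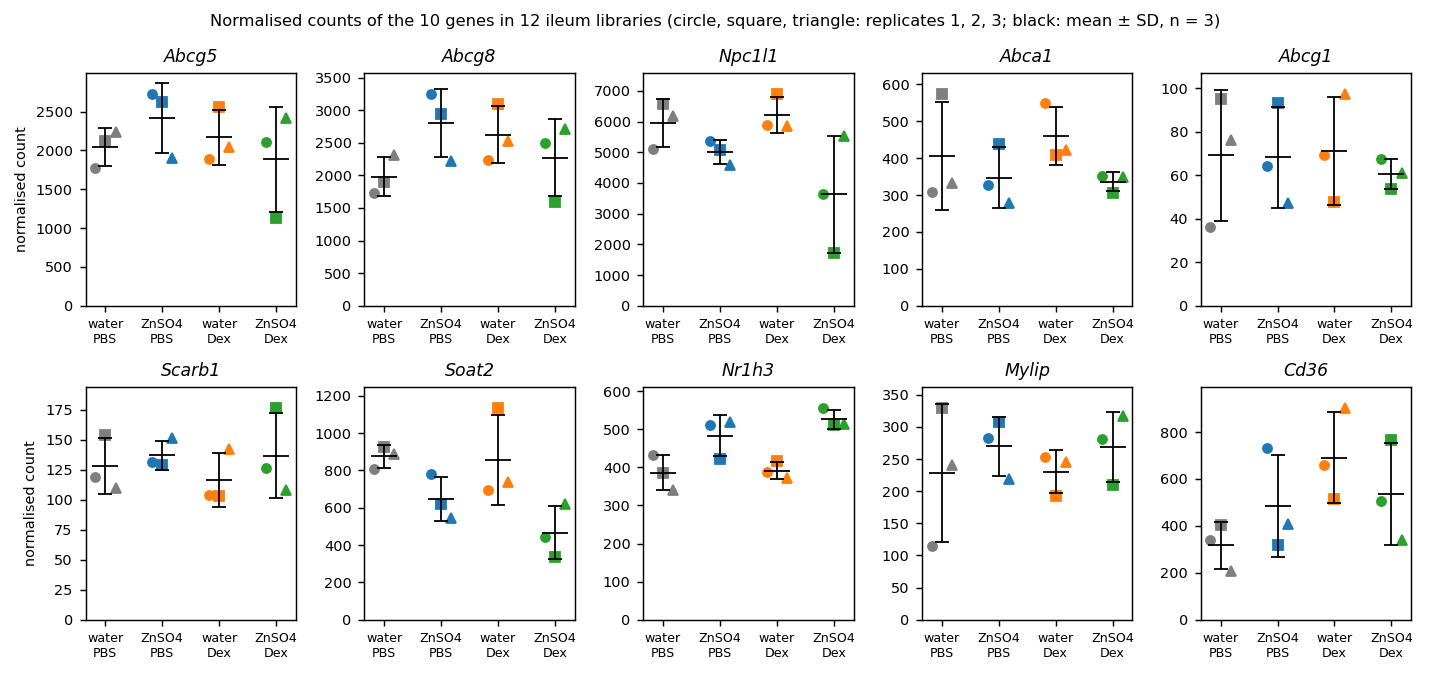
Normalised counts (y axis, from 0) of each gene in the 12 libraries by group (x axis); circle, square and triangle are replicates 1, 2 and 3, and black bars are mean ± SD. Soat2 was lower and Nr1h3 higher in ZnSO4 + Dex than in water + PBS without overlap, and ZnSO4 + Dex replicate 2 was the lowest library for Npc1l1, Abcg5, Abcg8 and Soat2.

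Whether 7 days of ZnSO4 alone moved these genes was asked in PBS mice. None of the 10 passed an adjusted p of 0.05 in edgeR, where 4.66% of all tested genes did, and DESeq2 called none either. At an unadjusted p under 0.05 there were 2 of 10, Abcg8 and Nr1h3, beside 19.8% of all genes. The groups did not overlap for 1 of 10, Soat2, beside 25.3% of all genes.

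Dex alone was compared in water mice. No gene of the 10 was called by edgeR or by DESeq2, against 9.93% of all tested genes in edgeR, and 1 (Cd36) had an unadjusted p under 0.05 beside 22.7% of all genes. Cd36 was also the only 1 of 10 whose groups did not overlap, which 29.7% of all genes shared.

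Mice given both treatments differed from untreated mice in Soat2 and Nr1h3. ZnSO4 + Dex against water + PBS gave 2 calls among the 10, Soat2 lower and Nr1h3 higher, at a background of 23.3% of tested genes, and the same 2 did not overlap (36.9% of all genes). ZnSO4 in Dex mice gave 1 call, Nr1h3, at a background of 4.37%, and 4 genes without overlap (Npc1l1, Abca1, Soat2 and Nr1h3) beside 25.9% of all genes. Dex in ZnSO4 mice gave no call in edgeR or DESeq2 (13.7% of all genes in edgeR), no unadjusted p under 0.05 (26.3% of all) and no pair of groups without overlap (29.1% of all). These comparisons share groups, so they are not independent of each other. All counts are small, and none of the shares can be read as particular to cholesterol genes.

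**Figure D2:**
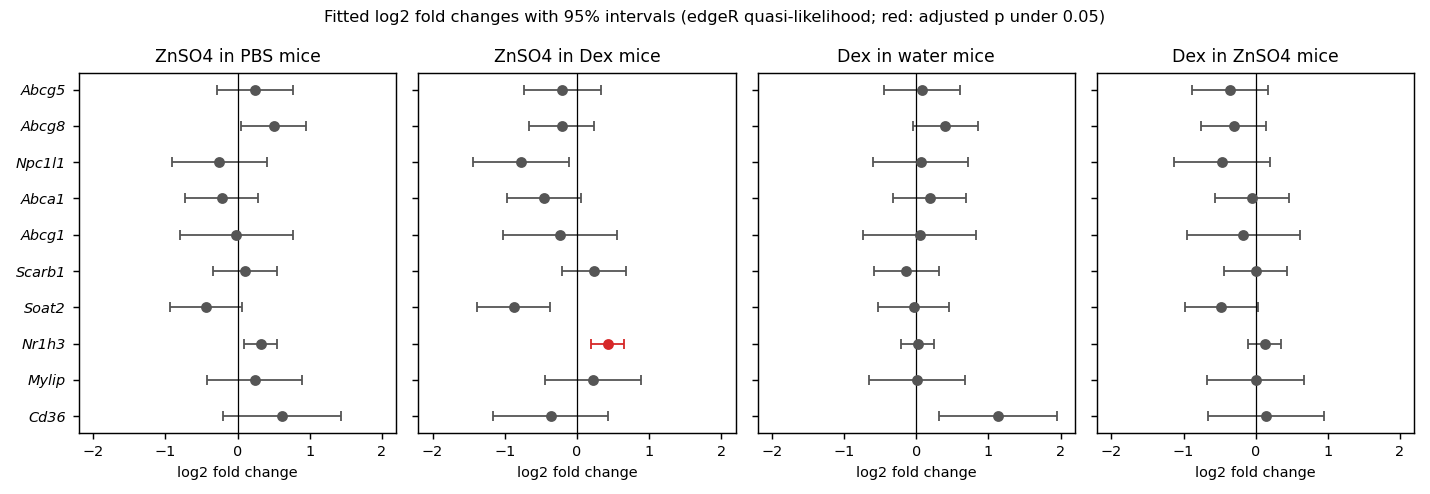
Fitted LFC (x axis, log2) with its 95% interval for each gene (y axis) in the comparisons of ZnSO4 with water and of Dex with PBS. Only Nr1h3 in the comparison of ZnSO4 with water in Dex mice (LFC 0.43) is drawn in red as past an adjusted p of 0.05.

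Npc1l1 (chr11:6211013-6230143, minus strand), the sterol importer of the brush border, had the most reads. Its normalised counts were 5093, 6587 and 6189 in water + PBS, and 5372, 5069 and 4583 in ZnSO4 + PBS. In water + Dex they were 5879, 6886 and 5863, and in ZnSO4 + Dex 3628, 1715 and 5532. All ZnSO4 + Dex mice were below all water + Dex mice, but the spread within ZnSO4 + Dex was wide (3625 ± 1909, SD, n = 3).

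The LFC for ZnSO4 in Dex mice was -0.78 (SE 0.302), with an adjusted p of 0.183 over all genes, and -0.72 (SE 0.301, adjusted p = 0.111) for ZnSO4 + Dex against water + PBS. Npc1l1 was therefore not called. Leaving out ZnSO4 + Dex replicate 3, its highest library in that group, turned both into calls (LFC -1.22, adjusted p = 0.0291, and -1.16, adjusted p = 0.0101) and also gave a call for Dex in ZnSO4 mice (-0.91, adjusted p = 0.0407), while leaving out replicate 2 gave -0.44 (adjusted p = 0.228) and -0.38 (adjusted p = 0.15).

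Npc1l1 moved with the enterocyte markers over the 12 libraries (log2 values, Pearson's r = 0.923, permutation p = 0.00122, adjusted over 3 relations 0.00183; Spearman's rho = 0.832, permutation p = 0.00119, adjusted 0.00178). The 3 relations, of Npc1l1, Soat2 and Cd36 to markers, were picked after the data were seen. The permutations ignored the treatment groups, so these p-values are descriptions. Without ZnSO4 + Dex replicate 2 and water + Dex replicate 2 the r was 0.503, so the relation rests largely on those libraries. Within groups, as deviations from the group means, r was 0.955 with ZnSO4 + Dex replicate 2 included. It was not computed without that library. Set against the markers, Npc1l1 had 31.3, 38.2 and 34.9 counts per 1000 enterocyte marker counts in water + PBS and 21.9, 20.9 and 29.5 in ZnSO4 + Dex; the other groups were at 28.8 to 33.7. With the log2 marker sum as a covariate, a fit added after the marker levels were seen, the LFC of ZnSO4 + Dex against water + PBS was -0.44 (adjusted p = 0.0215), and that of ZnSO4 in Dex mice -0.16 (adjusted p = 0.643). The marker sum itself differed between groups and was highest in water + Dex. Fits with this covariate thus cannot separate it fully from treatment, and whether the treatments acted on the markers was not tested.

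Abcg5 and Abcg8 encode the partners of the pump that returns sterols to the lumen. Abcg5 had normalised counts of 1776, 2119 and 2238 in water + PBS, 2722, 2623 and 1898 in ZnSO4 + PBS, 1894, 2565 and 2041 in water + Dex, and 2105, 1129 and 2424 in ZnSO4 + Dex. Every pair of groups overlapped, and the adjusted p was at least 0.394 in each comparison of 2 groups.

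Abcg8 had 1732, 1902 and 2311 in water + PBS, 3242, 2939 and 2226 in ZnSO4 + PBS, 2235, 3094 and 2532 in water + Dex, and 2501, 1598 and 2712 in ZnSO4 + Dex. Here 2 of 3 libraries in each single-treatment group lay above all water + PBS libraries. The LFC was 0.50 for ZnSO4 in PBS mice (SE 0.206, adjusted p = 0.202) and 0.40 for Dex in water mice (SE 0.206, adjusted p = 0.279), neither of them past the threshold. For ZnSO4 in PBS mice the covariate for enterocyte markers gave an LFC of 0.59 and a call (adjusted p = 0.0332). With that covariate the calls over all genes also rose, from 742 to 1200 of 15938.

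The partners were compared by the ratio of Abcg8 reads to Abcg5 reads within each library, which needs no scaling between libraries. It was 0.975, 0.898 and 1.03 in water + PBS. In ZnSO4 + PBS it was 1.19, 1.12 and 1.17, in water + Dex 1.18, 1.21 and 1.24, and in ZnSO4 + Dex 1.19, 1.42 and 1.12. All 9 treated libraries exceeded all 3 water + PBS libraries. These reads were not scaled to exon length, so a ratio of 1 is not an equal number of transcripts. Per length, Abcg5 had the higher mean RPKM in each group. Abcg5 and Abcg8 were at 66.3 and 46.5 in water + PBS and 78.2 and 65.7 in ZnSO4 + PBS. In water + Dex they were at 70.2 and 61.4, and in ZnSO4 + Dex at 61.1 and 53.2.

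The group means were 0.968 ± 0.0663 (SD, n = 3) for water + PBS, 1.16 ± 0.0361 for ZnSO4 + PBS, 1.21 ± 0.03 for water + Dex and 1.24 ± 0.157 for ZnSO4 + Dex. An exact permutation test against water + PBS, two-sided, gave p = 0.1 for each treated group, the smallest value that 3 against 3 libraries allows. The ratio was examined after the counts were known, and all these tests share the same water + PBS libraries. How often ratios of other gene pairs separate in this way was not counted. The annotated exons of the genes share 82 bases on opposite strands, 3.02% of Abcg5 and 2.19% of Abcg8, and whether counting used the strand was not given in the sources used here.

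**Figure D3:**
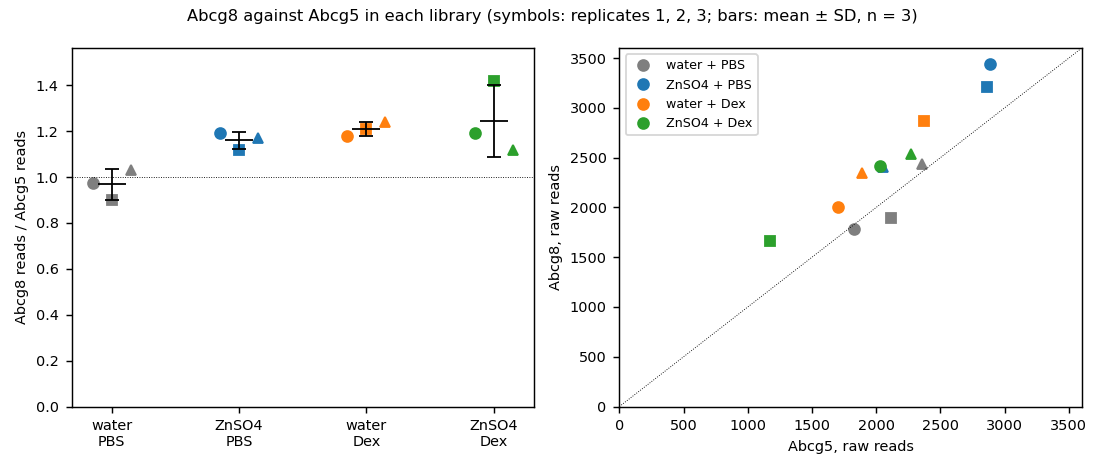
Left, Abcg8 reads divided by Abcg5 reads in each library (y axis, from 0) by group, with mean ± SD. Right, raw reads of both genes, not scaled to exon length, with the dotted line at equal reads. The 9 treated libraries lie at 1.12 to 1.42 and the 3 water + PBS libraries at 0.898 to 1.03.

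Soat2 (chr15:102150526-102163469, plus strand) encodes the enzyme that esterifies absorbed cholesterol in enterocytes. Its normalised counts were 809, 928 and 889 in water + PBS, 779, 620 and 545 in ZnSO4 + PBS, 693, 1133 and 739 in water + Dex, and 443, 337 and 618 in ZnSO4 + Dex. Each ZnSO4 group lay wholly below its water counterpart, and the ZnSO4 + Dex libraries were also below all water + PBS libraries.

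Soat2 fell in ZnSO4 + Dex against water + PBS (LFC -0.91, SE 0.230, adjusted p = 0.0145), a level 0.532 times that of the controls (95% interval 0.375 to 0.754). In the main edgeR fit this was also the only call of any of the 10 genes with an LFC above 0.8 in size, the size limit of the study. Some alternative fits gave further calls above that size, among them Npc1l1 without ZnSO4 + Dex replicate 3. The share of all genes past both limits was not counted. ZnSO4 in Dex mice gave -0.88 (SE 0.230, adjusted p = 0.0556), just short of the threshold in edgeR and past it in DESeq2 (adjusted p = 0.00428), and ZnSO4 in PBS mice -0.44 (SE 0.226, adjusted p = 0.32). Averaged over PBS and Dex mice, a comparison added after the first results were seen, the ZnSO4 difference was -0.66 (SE 0.161, adjusted p = 0.0214; 12.8% of all genes were called). For Dex in water mice the 95% interval of the LFC was -0.53 to 0.46.

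Soat2 also varied with the enterocyte markers, less closely than Npc1l1 (r = 0.751, permutation p = 0.00569, adjusted 0.00569; rho = 0.566, permutation p = 0.0601, adjusted 0.0601), and without the same 2 libraries r was 0.267. Within groups r was 0.693, again with ZnSO4 + Dex replicate 2 included. Without ZnSO4 + Dex replicate 2 the fall against water + PBS remained called (LFC -0.72, adjusted p = 0.0464), and with the enterocyte covariate too (-0.72, adjusted p = 0.0229). Without ZnSO4 + Dex replicate 1 it was not (adjusted p = 0.0547). Without ZnSO4 + Dex replicate 3 the comparison of ZnSO4 with water in Dex mice was called as well (adjusted p = 0.0233). The averaged ZnSO4 difference was not called without ZnSO4 + PBS replicate 3, water + Dex replicate 2 or ZnSO4 + Dex replicate 1 (adjusted p at most 0.0565), nor with the enterocyte covariate (-0.43, adjusted p = 0.102).

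**Figure D4:**
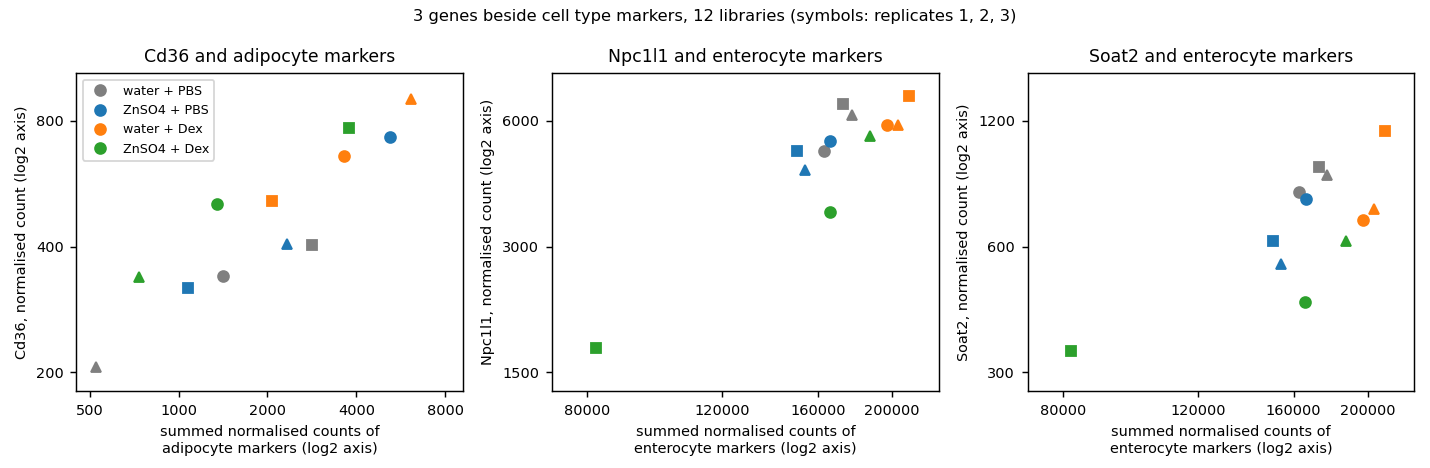
Normalised counts of Cd36, Npc1l1 and Soat2 (y axes, log2) against summed normalised counts of cell type markers (x axes, log2) in 12 libraries, coloured by group, with symbols for replicates 1, 2 and 3. Cd36 follows the adipocyte markers across the whole range (r = 0.911), while the relations of Npc1l1 and Soat2 to enterocyte markers lean on ZnSO4 + Dex replicate 2 at 82114.

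Nr1h3 (chr2:91184061-91202834, minus strand), the gene of the sterol sensor LXRα, went the other way. Normalised counts were 433, 385 and 341 in water + PBS, 510, 421 and 518 in ZnSO4 + PBS, 387, 416 and 372 in water + Dex, and 555, 510 and 515 in ZnSO4 + Dex. The ZnSO4 + Dex libraries were above every library of the water groups, and ZnSO4 + PBS overlapped water + PBS by a single library.

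Nr1h3 rose by an LFC of 0.45 in ZnSO4 + Dex against water + PBS (SE 0.105, adjusted p = 0.0104), a fold of 1.36 (95% interval 1.16 to 1.60). With ZnSO4 in Dex mice it rose by 0.43 (SE 0.106, adjusted p = 0.0442), and in PBS mice the LFC was 0.32 (SE 0.105, adjusted p = 0.113). The averaged ZnSO4 difference was 0.37 (SE 0.075, adjusted p = 0.00738) and that of Dex had an adjusted p of 0.549, where 21.5% of all genes were called. For Dex in water mice the LFC interval was -0.21 to 0.25.

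The call in Dex mice stood near the threshold. It was lost in 9 of the 12 fits that left out 1 library (LFC 0.39 to 0.48, adjusted p 0.0323 to 0.157 over the 12) and kept without water + PBS replicate 1, water + PBS replicate 3 or ZnSO4 + PBS replicate 2. With the replicate number as a block the adjusted p was 0.0574. The call against water + PBS and the averaged one were kept in 12 of 12 such fits, and with the enterocyte covariate (adjusted p = 0.0167 and 0.0202). Of its exonic bases, 34 are shared with Gm13783 on the same strand, 1.35% of the gene.

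The remaining LXR targets were low and variable. Abca1, which loads cholesterol onto nascent HDL, had 308, 573 and 334 in water + PBS, 326, 438 and 278 in ZnSO4 + PBS, 550, 409 and 421 in water + Dex, and 351, 306 and 350 in ZnSO4 + Dex. All ZnSO4 + Dex libraries were below all water + Dex libraries, with an LFC of -0.45 (SE 0.233, adjusted p = 0.323). Abcg1, which passes cholesterol to mature HDL, had 36 to 97 normalised counts across all libraries. Mylip lay between 115 and 329, and both of these extremes were water + PBS mice. The 95% interval of the LFC for ZnSO4 in PBS mice was -0.80 to 0.76 for Abcg1 and -0.42 to 0.90 for Mylip. Changes within those intervals were thus not excluded at this depth and replication.

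Scarb1, the HDL receptor, was at 103 to 176 normalised counts, and every comparison of 2 groups had an adjusted p of at least 0.576. For Dex in water mice the LFC interval was -0.58 to 0.31.

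Cd36 (chr5:17781690-17888801, minus strand) varied by 28.3% to 44.8% of the mean within groups. Its normalised counts were 340, 403 and 206 in water + PBS, 731, 318 and 406 in ZnSO4 + PBS, 660, 513 and 901 in water + Dex, and 505, 767 and 339 in ZnSO4 + Dex. All water + Dex libraries exceeded all water + PBS libraries, a fold of 2.18 (95% interval 1.24 to 3.85; LFC 1.13, SE 0.373, adjusted p = 0.0866). It was not called there, but was called when genes with low counts were kept (adjusted p = 0.0299) or when only these groups were fitted (adjusted p = 0.0452).

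Adipocyte markers (Adipoq, Plin1, Lep, Cidec, Cfd, Retn and Fabp4) varied with Cd36 from mouse to mouse. The 7 genes summed to 1415, 2825 and 524 normalised counts in water + PBS, 5200, 1076 and 2334 in ZnSO4 + PBS, 3629, 2074 and 6122 in water + Dex, and 1353, 3792 and 736 in ZnSO4 + Dex. In ZnSO4 + Dex replicate 3, 3 of the 7 were at 0 (Plin1, Lep and Retn), and in the other libraries none was.

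Over the 12 libraries the log2 relation of Cd36 to these markers had r = 0.911 (permutation p = 5e-05, adjusted 0.00015) and rho = 0.902 (permutation p = 0.00015, adjusted 0.00045). This relation was picked after the data were seen and the permutations ignored the groups, so its p-values are descriptions. Leaving out water + PBS replicate 3 and ZnSO4 + Dex replicate 3 gave r = 0.865, and within groups r was 0.98. Macrophage markers (7 genes) ranged from 2300 to 3446 and endothelial markers (6 genes) from 1128 to 1702 over all libraries, far narrower than the adipocyte sum.

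With the log2 adipocyte sum as a covariate, added after these levels were seen, Cd36 was higher with Dex by an LFC of 0.43 in water mice (adjusted p = 0.0485) and 0.44 in ZnSO4 mice (adjusted p = 0.0149). The Dex difference averaged over both was 0.43 (adjusted p = 0.00138), against 0.64 without the covariate (SE 0.261, adjusted p = 0.109). ZnSO4 + Dex against water + PBS gave 0.60 with the covariate (adjusted p = 0.00168) and 0.76 without it (SE 0.372, adjusted p = 0.164). Without the covariate the LFC was 1.13 in water mice and, in ZnSO4 mice, had a 95% interval of -0.65 to 0.95. The interaction for Cd36 had an LFC of -0.98 (SE 0.521, adjusted p = 0.952) without the covariate and 0.01 (adjusted p = 0.996) with it. Fabp4 and Cidec are known targets of PPAR factors, and whether Dex acted on the markers themselves was not tested.

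Whether the effect of 1 treatment depended on the other was tested as an interaction. In edgeR no gene of all 15938 passed (0% called), with 4.98% at an unadjusted p under 0.05, and DESeq2 called 6 genes of the whole table and none of the 10. Only Abcg8 among these genes had an unadjusted p under 0.05 in edgeR (LFC -0.71, SE 0.291, adjusted p = 0.952). The differences of Soat2 and Nr1h3 under ZnSO4 were thus not shown to differ between PBS and Dex mice (adjusted p = 0.959 and 0.974).

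The surrounding pathway was read from 5 lists without the 10 genes. Of the 20 tested genes in the list of LXR, its partners and other targets, ZnSO4 lowered 1 in PBS mice (5% of the list, beside 4.66% of all genes) and 2 in Dex mice (10%, beside 4.37%). Smpdl3a, a phosphodiesterase gene induced by LXR in macrophages, fell in both (LFC -0.91, SE 0.121, adjusted p = 0.00231, and -1.01, SE 0.121, adjusted p = 0.00131). Its normalised counts were 2516 ± 246 in water + PBS and 1337 ± 130 in ZnSO4 + PBS. In Dex mice Abca7 fell too (-0.47, adjusted p = 0.0217). Dex raised Mertk, a receptor for uptake of dead cells, in water mice (1.02, adjusted p = 0.0112), and lowered Srebf1, the lipogenic transcription factor, in ZnSO4 mice (-0.40, adjusted p = 0.0447), 1 gene or 5% in each, beside 9.93% and 13.7% of all genes. With the adipocyte covariate Srebf1 was not called. The median LFC of the list was 0.09, 0.12, -0.33 and -0.22 for ZnSO4 in PBS mice, Dex in water mice, ZnSO4 in Dex mice and Dex in ZnSO4 mice, where the median of all genes was between -0.014 and 0.009. With the adipocyte covariate the first of these medians was -0.07, and the third -0.26; without ZnSO4 + Dex replicate 2, the library with the low enterocyte sum, the third was -0.36 and the fourth -0.37. Lipogenic genes of the list that adipocytes also make, named after their values were seen, had wide spreads in Dex mice: Lpl 1034 ± 380 normalised counts in water + Dex and 414 ± 317 in ZnSO4 + Dex (SD, n = 3), and Scd1 11697 ± 5891 and 4823 ± 5456. The adipocyte sums were 2074 to 6122 and 736 to 3792 in those groups, and their part in the medians was not tested.

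Cholesterol movement and storage inside the cell (25 genes tested) had 5 higher and 2 lower with Dex in water mice (28%, beside 9.93% of all genes) and 3 higher and 5 lower in ZnSO4 mice (32%, beside 13.7%). Cyp27a1, the mitochondrial sterol 27-hydroxylase whose product can activate LXR, rose by an LFC of 2.81 (SE 0.177, adjusted p = 2.5e-06) in water mice and 2.85 (SE 0.175, adjusted p = 1.94e-06) in ZnSO4 mice. Its normalised counts were 215 ± 49.9 in water + PBS and 1511 ± 217 in water + Dex. The lipoprotein receptor Vldlr rose as well (1.39 and 1.49), and the sterol carrier Stard4 (-0.55 and -1.09) and the lysosomal lipase Lipa (-0.65 and -1.04) fell. With ZnSO4 in PBS mice 2 of 25 were higher (8%, beside 4.66% of all genes), the sterol-binding protein Osbpl1a (LFC 0.83, adjusted p = 0.00321) and the cholesteryl ester hydrolase Nceh1 (0.72, adjusted p = 0.0262). In Dex mice 1 was higher (Osbpl1a, 0.58) and 1 lower (Numb, an adaptor for NPC1L1 endocytosis, -0.44, adjusted p = 0.0334), again 8%, beside 4.37%.

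Sterol synthesis (26 genes) had 6 genes higher with Dex in water mice and none lower (23.1%, beside 9.93% of all genes), among them Pmvk (LFC 0.56, SE 0.102, adjusted p = 0.00417), Lss (0.78) and Msmo1 (0.96). In ZnSO4 mice 2 were higher with Dex, among them Msmo1 (0.73), and 1 was lower (Dhcr7, -0.46), 11.5% beside 13.7% of all genes. ZnSO4 moved none of the 26 in PBS mice in edgeR, and in Dex mice 2 were lower, Pmvk (-0.65, adjusted p = 0.00497) and Sqle (-0.68, adjusted p = 0.0381), 7.69% beside 4.37% of all genes.

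Of 10 tested genes of chylomicron and HDL assembly, Dex raised the Apob mRNA editing enzyme Apobec1 (1.63 in water and 1.28 in ZnSO4 mice) and lowered the lipase Lipg (-1.20 and -1.21), 20% in each, beside 9.93% and 13.7% of all genes. ZnSO4 moved none of them at this threshold in edgeR. The list of fatty acid uptake and PPAR targets (23 genes) is close to Cd36 in function. There Dex gave 6 higher and 2 lower in water mice (34.8%, beside 9.93% of all genes). In ZnSO4 mice it gave 5 higher and 1 lower (26.1%, beside 13.7% of all genes). Angptl4, an inhibitor of lipoprotein lipase, rose by an LFC of 3.34 (SE 0.477) and 3.23 (SE 0.471), and the fatty acid sensor Ppara by 1.81 (SE 0.160) and 2.00 (SE 0.161). The lipid droplet coat gene Plin2 fell with Dex in water mice (-0.78, adjusted p = 0.00294) and in ZnSO4 mice (-1.02, adjusted p = 0.000372). With ZnSO4 in Dex mice 1 gene was lower (Acsl5, -0.69, adjusted p = 0.0451), 4.35% beside 4.37% of all genes.

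**Figure D5:**
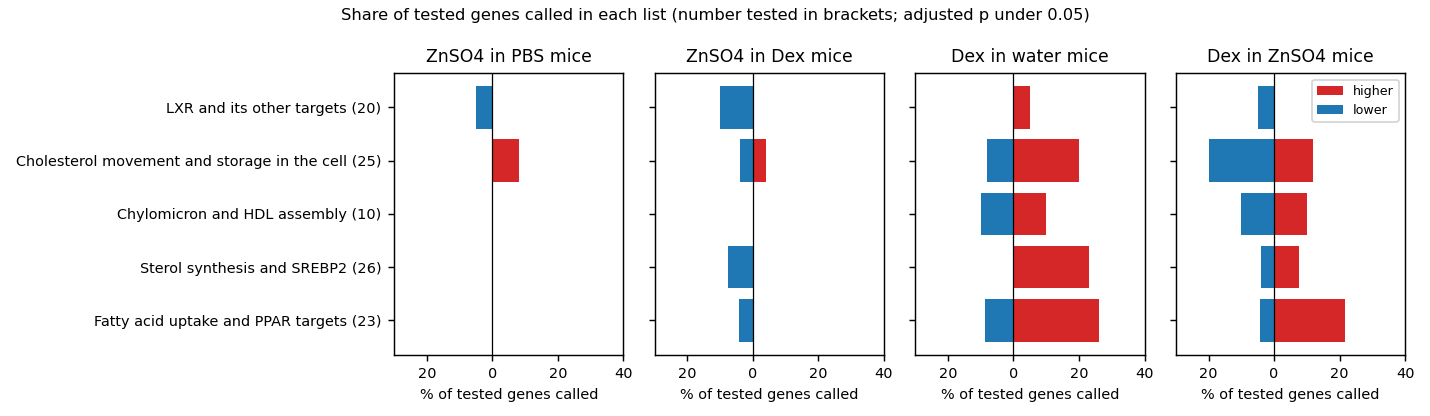
Share of tested genes called higher (red, right) or lower (blue, left), in percent of each list (y axis, number tested in brackets), for ZnSO4 with water and Dex with PBS. Dex in water mice gave 6 of 26 sterol synthesis genes higher, and ZnSO4 in PBS mice gave none of them.

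Against water + PBS, where 23.3% of all tested genes were called, the double-treated mice had 1 higher and 3 lower of 20 LXR genes (20%) and 5 and 4 of 25 in cholesterol movement (36%). They had 1 and 1 of 10 in chylomicron and HDL assembly (20%), 4 and 2 of 26 in sterol synthesis (23.1%), and 8 and 2 of 23 in fatty acid uptake (43.5%). Refits without ZnSO4 + Dex replicate 2 or with a marker covariate, added after the results were seen, moved some of the counts for single treatments. Without that library chylomicron genes had 2 calls for ZnSO4 in PBS mice and 4 for Dex in water and in ZnSO4 mice, and sterol synthesis had 9 for Dex in water mice. Over all 16181 genes of that refit, calls were 1001 for ZnSO4 in PBS mice, 1852 for Dex in water mice and 1866 for Dex in ZnSO4 mice. The main fit had 742, 1582 and 2189 of 15938. Cholesterol movement had 5 for ZnSO4 in PBS mice with the enterocyte covariate and none for ZnSO4 in Dex mice with the adipocyte covariate. Over all genes these comparisons went from 742 to 1200 and from 696 to 444 calls. The lists were written with results of these data known, so their counts are descriptions.

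Genes whose levels ran most like those of the called genes were sought over the 12 libraries among 14970 genes. For Nr1h3 these were Asb7 (r = 0.963), Btbd2 (0.947) and Eci1 (0.946). For Soat2 they were Pitpna (0.966), Gm11437 (0.936) and Acp2 (0.936). The libraries share treatments and scaling, so these likenesses are descriptions.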

How the data were processed

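Stranded RNA libraries of 12 ilea were sequenced single-end. The submitters' processing notes name Trimmomatic, HISAT2 2.0.4, featureCounts and mm10; reads with several positions were excluded. The annotation release and strand setting were not given in the sources used here. The authors deposited raw counts per gene; 54809 of 54838 identifiers were named and placed with GENCODE M21 (GRCm38).

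Fits were made in edgeR 4.0.16 (with limma 3.58.1, under R 4.3.3), and DESeq2 1.42.0 served as an alternative. Low genes were removed by filterByExpr (minimum count 10), scaled by TMM and fitted in 1 quasi-likelihood model of 4 group means; tests were two-sided and adjusted by Benjamini-Hochberg over 15938 genes, with a call at an adjusted p under 0.05. The fit was tested on simulated data. For normalised counts, each count was scaled from its effective library size to the mean one (11377723). RPKM used the summed length of all annotated exons. Intervals are 95%. Correlations used 100000 resamples, shuffled over all 12 libraries without regard to group.

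The 10 genes, the lists and the markers were chosen with earlier results of these data known. All 10 genes were named; of each pathway list, up to 4 called genes per comparison with the smallest adjusted p (a gene of the sterol synthesis list is not reported here); and for called genes the 3 most alike in log2 CPM (prior count 2, mean CPM of at least 1). Alternatives were DESeq2, RLE and upper-quartile factors, other filters, only the groups compared, a replicate block, an LFC above 0.8 and each library left out. The averaged comparisons, marker covariates and relations to markers were added after seeing the data. Libraries of a group differed by more than sampling noise (chi-square per degree of freedom 7.63 to 41). Nothing says whether the mice were handled separately, so p-values measure the spread between these libraries.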

Additional observations from a re-analysis of the deposited data

Results flagged for a closer look

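Abcg8 was set apart because Dex went with opposite directions in the 2 kinds of mice. Every water + Dex library lay above the water + PBS mean (LFC 0.40, SE 0.206), and every ZnSO4 + Dex library lay below the ZnSO4 + PBS mean (LFC -0.30, SE 0.205). Neither LFC passed the threshold (adjusted p = 0.279 and 0.394). The test of the difference itself, the interaction, had an LFC of -0.71 (SE 0.291) and an unadjusted p under 0.05 in edgeR, but an adjusted p of 0.952 over all genes. Without ZnSO4 + Dex replicate 2, whose enterocyte markers were lowest, the LFC in ZnSO4 mice was -0.10 (adjusted p = 0.789) and the interaction -0.51.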

How the results depend on the processing

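Counts of called genes among the 10 were compared over the alternatives. For ZnSO4 in Dex mice the main count of 1 became 2 (Soat2 and Nr1h3) with DESeq2 and with at least 10 counts in every library, and 0 with RLE factors, the replicate block, an LFC above 0.8, or either marker covariate; without a filter it was 1, but Soat2 in place of Nr1h3. For Dex in water mice it went from 0 to 1 (Cd36) without a filter, with only the groups compared and with either covariate. ZnSO4 + Dex against water + PBS had 1 of 2 (Soat2) with an LFC above 0.8, and the averaged ZnSO4 difference 0 of 2. The averaged ZnSO4 difference had 1 (Nr1h3) with the enterocyte covariate. ZnSO4 + Dex against water + PBS had 3 with either covariate, the third being Cd36 (adipocyte) or Npc1l1 (enterocyte). From 0, Dex in ZnSO4 mice had 1 (Cd36) with the adipocyte covariate, the averaged Dex difference had 1 with the adipocyte (Cd36) or the enterocyte covariate (Npc1l1), and ZnSO4 in PBS mice had 1 (Abcg8) with the enterocyte covariate. Calls over all genes moved too. For ZnSO4 in Dex mice they were 696 of 15938 in the main fit and 1022 of 15924 with DESeq2. They were 748 of 13666 with at least 10 counts in every library, 665 with RLE factors and 606 with the replicate block. For Dex in water mice 1582 became 1423 of 30321 without a filter and 1599 of 15177 with only the groups compared. The enterocyte covariate took ZnSO4 in PBS mice from 742 to 1200 and the averaged Dex difference from 3432 to 3883. The causes were not tested.

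With 1 library left out, the count ran from 0 to 2 for ZnSO4 in Dex mice, from 1 to 3 for ZnSO4 + Dex against water + PBS (1 without ZnSO4 + Dex replicate 1; 3, with Npc1l1, without ZnSO4 + Dex replicate 3) and for the averaged ZnSO4 difference (3, with Npc1l1, without the same library; 1, Nr1h3, without ZnSO4 + PBS replicate 3, water + Dex replicate 2 or ZnSO4 + Dex replicate 1). It ran from 0 to 1 for Dex in ZnSO4 mice (Npc1l1, without ZnSO4 + Dex replicate 3) and for the averaged Dex difference (Cd36, without ZnSO4 + PBS replicate 1). In these fits calls over all genes ran from 322 to 696 for ZnSO4 in Dex mice. They ran from 2669 to 3691 for ZnSO4 + Dex against water + PBS and from 1398 to 2000 for the averaged ZnSO4 difference. For Dex in ZnSO4 mice the range was 1496 to 2175, and for the averaged Dex difference 2750 to 3394. Direction turned for Abca1 in ZnSO4 + Dex against water + PBS (-0.43 to 0.0601 over the libraries left out, 0.0601 without water + PBS replicate 2), for the Cd36 interaction with the adipocyte covariate (0.0103), and with the enterocyte covariate for Abcg8 (0.16) and Scarb1 (-0.10) under ZnSO4 in Dex mice and for Scarb1 in the averaged ZnSO4 difference (-0.0315). A direction was followed only for the 36 of 80 pairs of gene and comparison whose LFC was at least its SE.

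No pairing of the mice by replicate number was seen (median correlation of deviations -0.0557 for same-numbered pairs and 0.0225 for others). The ranges were wide, -0.359 to 0.457 and -0.469 to 0.442, so a weak pairing could be missed. The replicate block ended the Nr1h3 call for ZnSO4 in Dex mice (adjusted p = 0.0574) and no other call. Over all genes, calls fell from 742 to 411 for ZnSO4 in PBS mice and from 2189 to 1417 for Dex in ZnSO4 mice with only the groups compared, and from 696 to 444 and 407 for ZnSO4 in Dex mice with the adipocyte and the enterocyte covariate, which gave 1200 for ZnSO4 in PBS mice. With 1 library left out these counts reached as low as 283 for ZnSO4 in PBS mice, 936 of 1582 for Dex in water mice and 322 for ZnSO4 in Dex mice. With 3 mice a group, wide intervals limit what can be said of Abcg1, Scarb1, Mylip and Abca1.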

Other observations

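T cell markers (Cd3d, Cd3e, Cd3g, Cd8a and Trac) summed to 655 to 1107 normalised counts in water + PBS and 668 to 899 in water + Dex, and to 322 to 627 in ZnSO4 + PBS and 297 to 330 in ZnSO4 + Dex. B cell markers (6 genes) varied widely within groups, from 126 to 5720 over all libraries. Proximal enterocyte markers (Lct, Slc2a2, Rbp2, Gstm3 and Fabp1) summed to 1420 to 1876 in water + PBS, 1684 to 2619 in ZnSO4 + PBS, 2650 to 3261 in water + Dex and 2148 to 4525 in ZnSO4 + Dex. Smooth muscle markers ran from 10271 to 22574. These sums were not tested.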
